A study of Mus musculus with 12 samples.

Results

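The 10 genes described here form the switch that lets a resting cell enter the cell cycle. They are the D-type cyclin genes Ccnd2 and Ccnd3, the kinase genes Cdk4 and Cdk6, the inhibitor genes Cdkn1a, Cdkn1b and Cdkn2c, and the pocket protein genes Rb1, Rbl1 and Rbl2. The list was fixed by gene symbol, and each gene was read from its probe set (a set of short probes for a transcript) with the highest mean over all 12 arrays. All 10 were measured, among 18193 genes in all.

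Transcripts were measured on Affymetrix mouse 3' arrays in splenic follicular B cells, the resting B cells of the spleen's follicles, from 6-week-old C57Bl/6 mice that were wild type (WT) or carried the IkL/L genotype. IkL/L is a homozygous change of Ikzf1, the gene of the transcription factor Ikaros. It is known as a germline allele that lowers Ikaros in all cells, so cells other than B cells in these mice also carried it during B cell development. Follicular B cells were sorted by B220, high CD23 and low CD21 to a purity above 98%, and every group was cultured in the same medium. The unstimulated groups were kept for 3 h without stimulus. The stimulated groups received 10 µg/ml of goat F(ab')2 antibody to mouse IgM, which crosslinks the B cell antigen receptor, for 3 h or 12 h. Each of the 6 groups has 2 arrays, from 2 independent experiments per the series' design text, and which mice or pools gave each array is not stated. There was no 12 h culture without stimulus, so at 12 h stimulation and time in culture cannot be told apart.

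D-type cyclins bind CDK4 and CDK6, and the active kinases phosphorylate the pocket proteins Rb (Rb1), p107 (Rbl1) and p130 (Rbl2). Unphosphorylated pocket proteins hold E2F transcription factors in check, and their phosphorylation frees E2F to switch on genes of DNA replication. The proteins p21 (Cdkn1a) and p27 (Cdkn1b) bind cyclin and kinase complexes, and p18 (Cdkn2c), of the INK4 family, binds CDK4 and CDK6 themselves. In B cells, cyclin D2 is the D-type cyclin known to be needed for a full response to antigen receptor crosslinking. Array signal follows transcripts only, and much control of these proteins is by phosphorylation and turnover, which the arrays do not show.

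Over all genes, arrays of a group correlated with r from 0.9897 to 0.9942. The median log2 signal of an array was 3.12 to 3.21, so a floor of 4.21 was set, 1 above the highest median, and signal under it is not told from background here. The mean log2 signal of 7 measured B cell markers was 9.37 to 9.92 in the 4 unstimulated arrays and 7.73 to 8.85 in the stimulated arrays. Of 7 T cell markers, 6 were under the floor on all arrays, as were 3 of 3 measured NK cell markers and, of 7 myeloid markers, Itgam, Csf1r and Cd14. The myeloid list's mean was higher in replicate 2 than in replicate 1 of every group, 3.98 to 4.61 against 3.21 to 3.80. The mean of 4 plasma cell markers was also higher in replicate 2 of every group, 5.16 to 6.41 against 4.81 to 5.77. The mean of 5 marginal zone B cell markers was 7.27 to 7.72 in unstimulated arrays, 8.39 to 8.58 at 3 h and 7.56 to 7.84 at 12 h. By group mean S1pr3 moved the most at 3 h, from 3.41 to 8.40 in WT and from 3.69 to 8.31 in IkL/L, starting under the floor. Cr2 and Cd9 went up in both genotypes. Plac8 went down, from 11.67 to 11.27 in WT and from 11.42 to 9.72 in IkL/L. Dtx1 went up in WT and down in IkL/L. Of 4 erythroid markers 2 were measured, with means from 2.94 to 4.04. The 3 arrays of WT replicate 1 stood apart in sex-linked transcripts. Xist, transcribed from the inactive X chromosome, was between 10.01 and 10.69 there and between 3.19 and 3.48 on the other 9 arrays, and the Y-linked Eif2s3y was at 2.41 to 2.83 against 8.30 to 9.24. All IkL/L arrays are among those 9, so comparisons of the genotypes are not balanced in this respect. Ikzf1 in WT was at 9.85 and 9.83 unstimulated, 8.93 and 9.10 at 3 h and 10.33 and 10.00 at 12 h. Its IkL/L values were 10.00 and 9.94, then 8.58 and 8.08, then 9.59 and 8.98, so the genotypes differed by 0.13, -0.68 and -0.88. In limma the adjusted p of these differences was 0.937, 0.193 and 0.148, and on average the difference was -0.48 with an adjusted p of 0.0533. Where its probe set lies relative to the change is not given, so it does not check the labels. In bulk RNA, fewer cells of a type and less RNA per cell cannot be told apart. Because it is not stated that the arrays of a group came from separate mice, p-values measure the spread between these arrays.

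In WT cells the cyclin gene Ccnd2 and the kinase genes Cdk4 and Cdk6 rose within 3 h of receptor crosslinking. The cyclin gene Ccnd3, the inhibitor gene Cdkn1b and the pocket protein genes Rb1, Rbl1 and Rbl2 fell, and Cdkn1a and Cdkn2c did not pass the test, which is 8 of the 10 genes past an adjusted p of 0.05 against 19.4% of all genes. The median log2 difference of the 10 genes was -0.67, against 0.02 over all genes. At 12 h against unstimulated cells 5 of 10 passed, with Cdk4 higher and Ccnd3, Cdkn1b, Rbl1 and Rbl2 lower, against 18.8% of all genes, and the median difference was -0.22 against 0.05. Among IkL/L cells 9 of 10 passed at 3 h, the same 8 genes in the same directions and Cdkn2c lower, against 20.4% of all genes, with a median of -0.89 against -0.03. At 12 h the same 5 genes passed in IkL/L as in WT, against 17.6% of all genes, with a median of -0.21 against 0.02. These counts are from the fit without a block for replicate number. With a replicate block within genotype, Cdkn2c in WT at 3 h (adjusted p 0.016) also passed. So did Ccnd2 in WT (0.0289) and Cdkn1a in IkL/L (0.0168) at 12 h. With that block 24.5%, 24.7% and 23.8% of all genes passed in these 3 comparisons (WT 3 h, WT 12 h, IkL/L 12 h). In each genotype the 3 h and 12 h comparisons share their unstimulated arrays. Arrays of 9 of the 10 genes did not overlap between unstimulated and 3 h cells in either genotype, but with 2 arrays against 2 this was also so for 54.8% of all genes in WT and 52.3% in IkL/L.

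Changes here are relative to an equal overall signal per array. When arrays were instead scaled to 7 housekeeping genes, the median of all genes moved to -0.14 in WT and -0.25 in IkL/L at 12 h against unstimulated cells, and to 0.02 in both genotypes at 3 h. The share of called genes that were higher then moved from 53.9% to 33.4% in WT and from 55.3% to 26.3% in IkL/L at 12 h. Of the 7 housekeeping genes, 2 were themselves called higher and 0 lower at 12 h in each genotype, so the scaling carries their change. Each of the 38 calls made for the 10 genes kept its direction under this scaling. The scaling moves all genes of a comparison by the same amount, which was smaller than any called difference. It did remove the calls of Rbl1 at 12 h against 3 h in WT (adjusted p 0.0566) and of Ccnd3 between genotypes at 3 h (0.161).

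**Figure D1:**
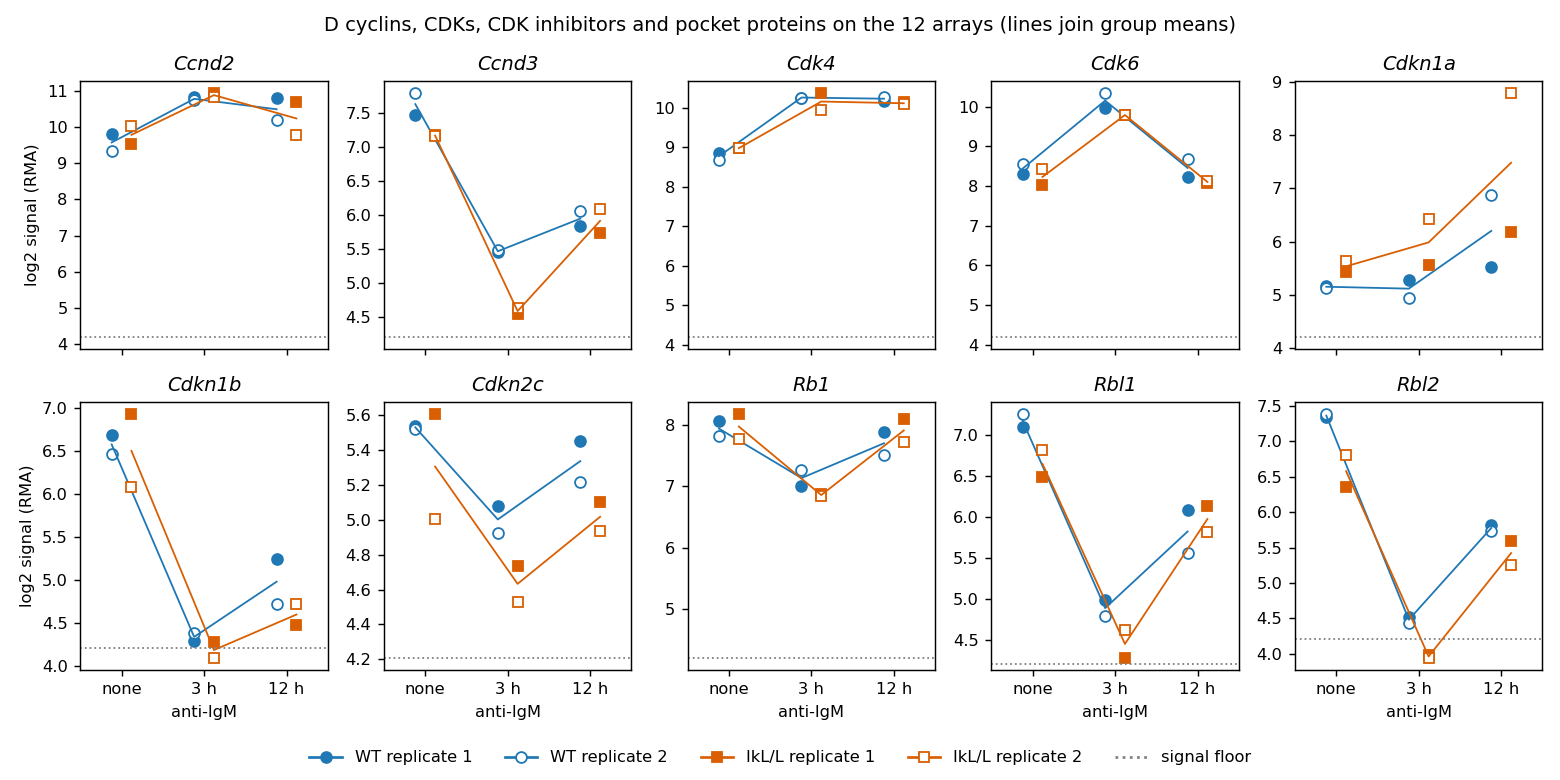
Log2 signal of the 10 genes on the 12 arrays, by condition (x axis) and genotype (colour), each panel on its own y axis. Filled points are replicate 1, open points are replicate 2, and the dotted line is the floor of 4.21. Ccnd2, Cdk4 and Cdk6 are highest in stimulated cells, and Ccnd3, Cdkn1b, Rbl1 and Rbl2 are highest in unstimulated cells.

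Ccnd2 encodes cyclin D2. Its log2 signal was 9.81 and 9.33 in unstimulated WT cells, 10.81 and 10.73 at 3 h and 10.79 and 10.18 at 12 h. Its IkL/L values were 9.53 and 10.03 unstimulated, 10.93 and 10.82 at 3 h and 10.69 and 9.77 at 12 h. All 4 arrays at 3 h were above all unstimulated arrays, the 12 h arrays of WT were above unstimulated WT, and those of IkL/L overlapped the unstimulated arrays. Ccnd2 rose by 1.21 (SE 0.31) at 3 h in WT, which is 2.31-fold, with an adjusted p of 0.019. It rose by 1.10 (SE 0.31), or 2.14-fold, in IkL/L with an adjusted p of 0.0291. Both calls were lost in some fits without a single array and in some without all arrays of a replicate number. The rise was 1.00 in WT without WT replicate 2 and 0.79 in IkL/L without IkL/L replicate 1. At 12 h the differences were 0.92 in WT with an adjusted p of 0.0686, or 0.0289 with a replicate block within genotype, and 0.45 in IkL/L with an adjusted p of 0.444. The name of the probe set used ends in _x_at, Affymetrix's mark for probes that may also match other transcripts, and so does that of Cdk4. Among the pathway and marker genes named below, the probe sets of Ccne1, Mcm5 and Sdc1 carry the same mark. Ccnd2 has 6 other probe sets, of which 5 reached the floor. At 3 h these were higher by 1.02 to 1.44 in WT and by 1.31 to 2.40 in IkL/L, with 4 of 5 and 5 of 5 past the threshold over all probe sets. At 12 h they were higher by 0.87 to 1.96 in WT and 0.74 to 1.69 in IkL/L, with 5 of 5 and 4 of 5 past it. With the mean of all probe sets in place of the brightest, the adjusted p at 12 h was 0.00693 in WT and 0.0184 in IkL/L.

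Ccnd3 encodes cyclin D3 and moved the opposite way. It was at 7.48 and 7.80 in unstimulated WT cells, 5.45 and 5.48 at 3 h and 5.84 and 6.06 at 12 h. The IkL/L arrays read 7.18 and 7.17 unstimulated, 4.55 and 4.63 at 3 h and 5.74 and 6.09 at 12 h. Every stimulated array was below every unstimulated array, and within each genotype the 3 h arrays were the lowest. Ccnd3 fell by 2.17 (SE 0.15) at 3 h in WT, a 4.50-fold decrease with an adjusted p of 1.54e-05. In IkL/L the difference was -2.59 (SE 0.15), or 6.01-fold, with an adjusted p of 6.51e-06. At 12 h it was still lower, with a difference of -1.69 in WT (adjusted p 6.36e-05) and -1.26 in IkL/L (adjusted p 0.000406). The gene stood higher at 12 h than at 3 h, by 1.33 in IkL/L with an adjusted p of 0.000373, and by 0.48 in WT with an adjusted p of 0.0802, or 0.031 with the replicate block. Its second probe set to reach the floor was lower by 2.65 and 2.67 at 3 h and 12 h in WT and by 2.95 and 2.57 in IkL/L, and its mean in IkL/L at 3 h was 4.10, under the floor. On that probe set the difference of 12 h from 3 h was 0.38 in IkL/L with an adjusted p of 0.525, so the rise from 3 h to 12 h in IkL/L did not pass there.

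Cdk4 encodes the kinase CDK4. Its signal was 8.86 and 8.68 in unstimulated WT cells, 10.26 on both arrays at 3 h, and 10.17 and 10.28 at 12 h. In the IkL/L groups the signal was 8.97 and 8.98 unstimulated, 10.37 and 9.94 at 3 h and 10.14 and 10.08 at 12 h. All 8 stimulated arrays were above all 4 unstimulated ones, and the 3 h and 12 h arrays overlapped in both genotypes. Cdk4 rose by 1.48 (SE 0.14) at 3 h and 1.45 at 12 h in WT, which is 2.80-fold and 2.74-fold, with adjusted p of 7.18e-05 and 9.44e-05. The rises in IkL/L were 1.18 at 3 h and 1.14 at 12 h, or 2.27-fold and 2.20-fold, with adjusted p of 0.000254 and 0.000476. Between 3 h and 12 h the difference was -0.03 in WT (95% interval -0.35 to 0.29) and -0.04 in IkL/L (-0.36 to 0.28). The other 2 probe sets of Cdk4 were higher by 1.33 to 1.84 in all 4 comparisons with unstimulated cells, all past the threshold.

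Cdk6 encodes CDK6, the other kinase of D-type cyclins, and rose at 3 h before falling back. It was at 8.31 and 8.57 in unstimulated WT cells, 9.96 and 10.34 at 3 h and 8.22 and 8.69 at 12 h. Its IkL/L values were 8.02 and 8.44 unstimulated, 9.80 and 9.78 at 3 h and 8.08 and 8.13 at 12 h. The 3 h arrays of both genotypes were above all others, and the 12 h arrays overlapped the unstimulated ones. Cdk6 rose at 3 h by 1.71 (SE 0.20) in WT, or 3.28-fold, and by 1.56 in IkL/L, or 2.95-fold, with adjusted p of 0.000187 and 0.000329. From 3 h to 12 h it fell by 1.70 in WT and by 1.68 in IkL/L, with adjusted p of 0.000684 and 0.000402. At 12 h against unstimulated cells the difference was 0.02 in WT (95% interval -0.43 to 0.46) and -0.13 in IkL/L (-0.57 to 0.32). The other probe set that reached the floor was higher by 1.60 and 1.82 at 3 h, and at 12 h differed by -0.14 and -0.02.

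The promoters of these kinase genes are shown because both rose at 3 h while 1 fell back by 12 h. Promoters are RefSeq's on build GRCm38.p6, taken as the 250 bases before the gene start and printed 5′ to 3′ on the gene's strand. The table held 8 of the 10 genes, with Ccnd2 and Rb1 not matched. Capitals mark matches, on either strand, to the letters CACGTG (E-box, the motif of MYC and its relatives), GTAAACA (FOXO), TTCCCGC for E2F, its variants TTCGCGC for the same factors, TTGGCGC likewise, and TTTGGCGC, which contains the former, TTTGAA (CHR, a cell cycle element), TGGGAA (a core of Ikaros sites) and TGACGTCA (CRE). Cdk4 lies at chr10:127063285-127063534 on the plus strand and Cdk6 at chr5:3343643-3343892 on the plus strand.
Cdk4: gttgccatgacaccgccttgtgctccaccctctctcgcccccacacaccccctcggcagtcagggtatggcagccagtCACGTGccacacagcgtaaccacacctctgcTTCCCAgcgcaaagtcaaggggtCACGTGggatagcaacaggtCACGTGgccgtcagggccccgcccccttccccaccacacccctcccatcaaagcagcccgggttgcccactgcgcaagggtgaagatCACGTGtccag
Cdk6: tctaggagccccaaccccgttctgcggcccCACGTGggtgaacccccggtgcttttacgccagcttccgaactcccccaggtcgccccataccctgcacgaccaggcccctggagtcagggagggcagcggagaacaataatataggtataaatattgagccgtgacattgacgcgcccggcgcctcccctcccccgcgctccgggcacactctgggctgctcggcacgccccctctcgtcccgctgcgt
The Cdk4 promoter holds CACGTG 4 times, beginning 172, 118, 98 and 11 bases before the start, and TGGGAA on the opposite strand at 141. Of 32851 promoters in the table, 6.02% hold CACGTG at least once and 7 promoters hold it 4 times or more. Cdk6 holds it once, 220 bases before the start. A match of letters is a description of the sequence and not a binding site.

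Cdkn1b encodes p27, the inhibitor known to hold resting lymphocytes out of the cycle. Its signal was 6.69 and 6.46 in unstimulated WT cells, 4.29 and 4.38 at 3 h and 5.24 and 4.71 at 12 h. The IkL/L arrays read 6.93 and 6.07 unstimulated, 4.27 and 4.09 at 3 h and 4.48 and 4.71 at 12 h. Stimulated arrays lay below all unstimulated arrays, and 1 of the IkL/L arrays at 3 h was under the floor. Cdkn1b fell by 2.24 (SE 0.26) in WT at 3 h, a 4.73-fold decrease with an adjusted p of 0.000185. The IkL/L difference was -2.32, a decrease of at least 4.8-fold when the array under the floor is raised to it, with an adjusted p of 0.000163. At 12 h it remained lower by 3.03-fold in WT (adjusted p 0.00166) and by 3.74-fold in IkL/L (adjusted p 0.000736). The WT call at 12 h was lost without WT replicate 2, at an adjusted p of 0.0681. From 3 h to 12 h the differences of 0.64 in WT and 0.41 in IkL/L did not pass the threshold, at adjusted p of 0.174 and 0.381.

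Cdkn2c encodes p18 and had the smallest spread of group means among the 10 genes. It was at 5.54 and 5.52 in unstimulated WT cells, 5.08 and 4.93 at 3 h and 5.45 and 5.22 at 12 h. In the IkL/L groups the signal was 5.60 and 5.00 unstimulated, 4.73 and 4.53 at 3 h and 5.10 and 4.93 at 12 h. The 3 h arrays of each genotype were below its unstimulated arrays, with 5.00 and 4.73 the nearest values in IkL/L. The fall at 3 h in IkL/L was 0.67 (SE 0.19), or 1.59-fold, with an adjusted p of 0.027, and this call was lost in 8 of 24 other settings. In WT the difference at 3 h was -0.53 with an adjusted p of 0.0806, or 0.016 with the replicate block. At 12 h the differences were -0.19 and -0.29, with adjusted p of 0.609 and 0.41.

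Cdkn1a encodes p21, known as a target of p53, and its replicates stood furthest apart. It was at 5.16 and 5.13 in unstimulated WT cells, 5.28 and 4.95 at 3 h and 5.53 and 6.88 at 12 h. Its IkL/L values were 5.44 and 5.63 unstimulated, 5.55 and 6.42 at 3 h and 6.17 and 8.80 at 12 h. The 12 h arrays were above the unstimulated ones in both genotypes, and replicate 2 was the higher array at 12 h in both, by 2.62 in IkL/L. No comparison of Cdkn1a passed the threshold. The difference at 12 h was 1.05 (SE 0.70) in WT with an adjusted p of 0.408. The IkL/L difference was 1.95 (SE 0.70) with an adjusted p of 0.0913, or 0.0168 with the replicate block, and 3.26 with an adjusted p of 0.00274 without IkL/L 12 h replicate 1. At 12 h the myeloid marker means of replicates 1 and 2 were 3.53 and 4.61 (WT) and 3.80 and 4.42 (IkL/L). Those of the plasma cell markers were 4.91 and 5.16 (WT) and 4.81 and 5.74 (IkL/L). Their part in this result was not tested. The other probe set of Cdkn1a differed by 0.34 in WT and 1.23 in IkL/L at 12 h, neither past the threshold.

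**Figure D2:**
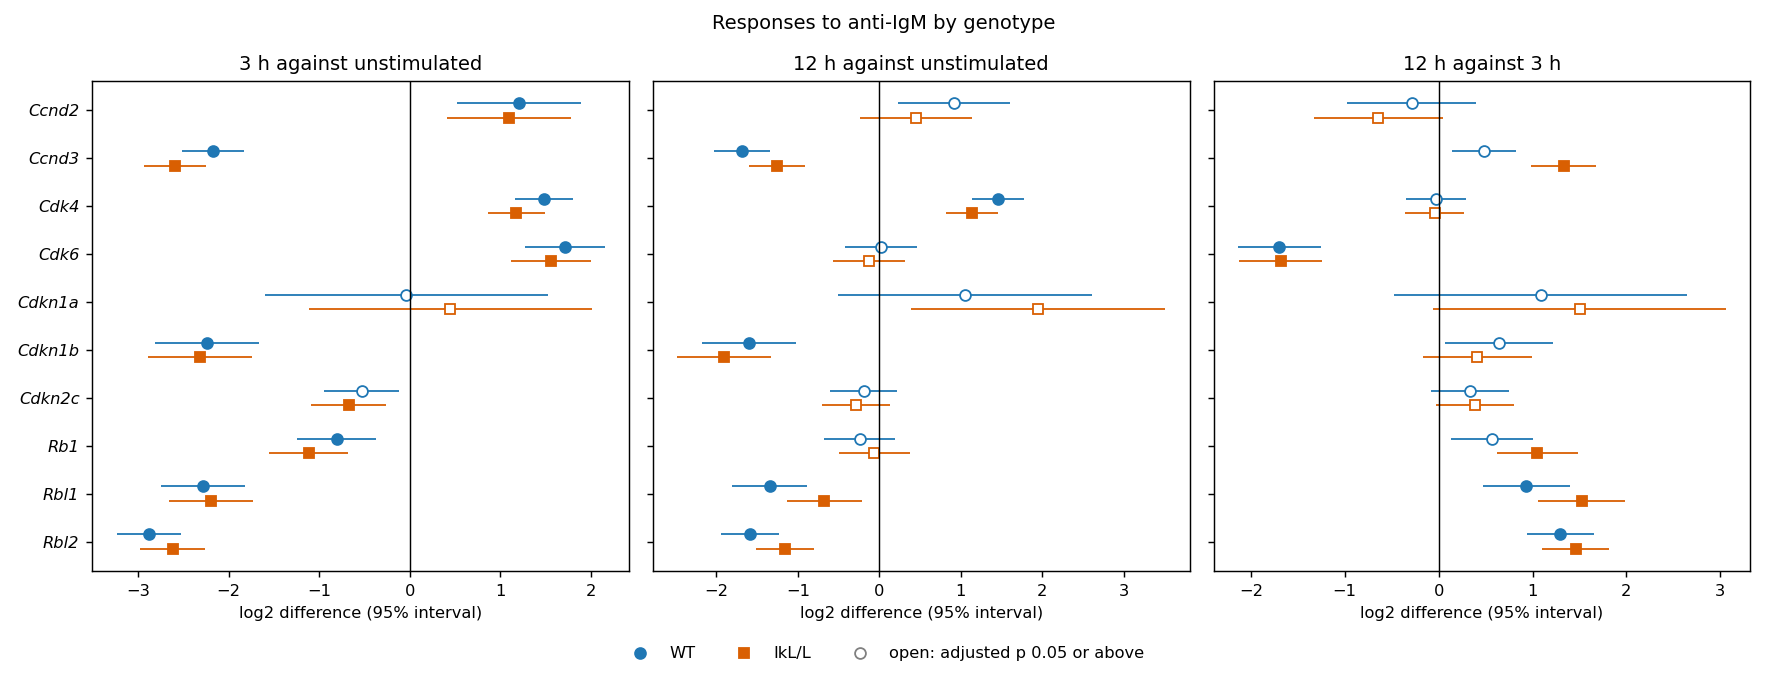
Log2 differences of the 10 genes at 3 h against unstimulated, 12 h against unstimulated and 12 h against 3 h, in WT and IkL/L, with 95% intervals from the fit and open symbols for an adjusted p of 0.05 or above. Cdk4 stays on the right at 3 h and 12 h, Cdk6 is on the right at 3 h and near 0 at 12 h, and Rbl2 lies furthest left in WT at 3 h.

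Rbl2 encodes p130, the pocket protein of resting cells, and fell the most of the 10 genes in WT at 3 h. Its signal was 7.34 and 7.38 in unstimulated WT cells, 4.52 and 4.44 at 3 h and 5.82 and 5.73 at 12 h. The IkL/L arrays read 6.35 and 6.80 unstimulated, 3.98 and 3.94 at 3 h and 5.59 and 5.25 at 12 h. No arrays of any 2 of the 6 groups overlapped, and both IkL/L arrays at 3 h were under the floor. Rbl2 fell by 2.88 (SE 0.16) at 3 h in WT, or 7.37-fold, with an adjusted p of 7.13e-06. In IkL/L it fell by 2.62, at least 5.18-fold, with an adjusted p of 7.93e-06. At 12 h it was lower than in unstimulated cells by 3.00-fold in WT and 2.23-fold in IkL/L, with adjusted p of 0.00011 and 0.000821. From 3 h to 12 h it rose by 1.30 in WT and by 1.46, at least 2.32-fold, in IkL/L, with adjusted p of 0.000885 and 0.000292. The WT rise was lost without WT replicate 1 or 2, at adjusted p of 0.0597 and 0.0623.

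Rbl1 encodes p107, which is closely related to p130. It was at 7.09 and 7.25 in unstimulated WT cells, 4.99 and 4.79 at 3 h and 6.09 and 5.56 at 12 h. In the IkL/L groups the signal was 6.48 and 6.81 unstimulated, 4.29 and 4.62 at 3 h and 6.14 and 5.81 at 12 h. In each genotype the unstimulated arrays were highest, the 12 h arrays between and the 3 h arrays lowest, with no overlap. Rbl1 at 3 h fell by 2.28 (SE 0.21) in WT and fell by 2.20 in IkL/L, or 4.87-fold and 4.58-fold, with adjusted p of 5.51e-05 and 6.03e-05. At 12 h it was lower by 1.35 in WT with an adjusted p of 0.00122, lost without WT replicate 2 at 0.0739. In IkL/L it was lower by 0.67 with an adjusted p of 0.0499, a call lost in 18 of 24 other settings. The rise from 3 h to 12 h was 0.93 in WT with an adjusted p of 0.017, lost in 8 of 24 settings, and 1.52 in IkL/L with an adjusted p of 0.000897, lost without IkL/L replicate 1 at 0.0523.

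Rb1 encodes the retinoblastoma protein. Its signal was 8.06 and 7.82 in unstimulated WT cells, 7.01 and 7.26 at 3 h and 7.89 and 7.51 at 12 h. Its IkL/L values were 8.18 and 7.78 unstimulated, 6.88 and 6.84 at 3 h and 8.11 and 7.72 at 12 h. The 3 h arrays of both genotypes were the lowest, and the 12 h arrays overlapped the unstimulated ones. Rb1 at 3 h fell by 0.81 (SE 0.20) in WT, or 1.75-fold, with an adjusted p of 0.0145, which was lost in 5 of 24 settings and reached 0.317 without WT replicate 1. In IkL/L it fell by 1.12, or 2.17-fold, with an adjusted p of 0.00231, lost without IkL/L replicate 1 at 0.0654. At 12 h the difference from unstimulated cells was -0.24 in WT (95% interval -0.67 to 0.20) and -0.06 in IkL/L (-0.50 to 0.37). From 3 h to 12 h Rb1 rose by 1.05 in IkL/L with an adjusted p of 0.00502, lost without IkL/L replicate 1 at 0.0982. In WT that difference was 0.57 with an adjusted p of 0.105, or 0.0402 with the replicate block.

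Between 12 h and 3 h, then, 3 of 10 genes passed in WT against 10.8% of all genes, with Rbl1 and Rbl2 higher and Cdk6 lower. With the replicate block within genotype 5 of 10 passed in WT, against 17% of all genes with the same block. In IkL/L 5 of 10 passed against 15.5% of all genes, with Ccnd3, Rb1, Rbl1 and Rbl2 higher and Cdk6 lower. The promoters of Rbl1, at chr2:157204535-157204784 on the minus strand, and Rbl2, at chr8:91069807-91070056 on the plus strand, are shown because both genes fell and rose again.
Rbl1: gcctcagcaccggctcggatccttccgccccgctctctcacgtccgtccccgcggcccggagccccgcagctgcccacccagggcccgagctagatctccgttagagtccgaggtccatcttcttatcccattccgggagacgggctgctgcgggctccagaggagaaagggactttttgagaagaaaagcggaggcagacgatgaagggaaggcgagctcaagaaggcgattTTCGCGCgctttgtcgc
Rbl2: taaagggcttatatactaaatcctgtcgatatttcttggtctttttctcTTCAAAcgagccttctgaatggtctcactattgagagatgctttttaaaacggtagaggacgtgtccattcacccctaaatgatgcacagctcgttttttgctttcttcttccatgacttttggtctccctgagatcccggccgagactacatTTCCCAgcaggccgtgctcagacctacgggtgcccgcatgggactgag
Rbl1 holds the E2F letters TTCGCGC 17 bases before the start, found in 1.28% of all promoters. Rbl2 holds TTTGAA on the opposite strand at 201 bases, found in 16% of promoters, and TGGGAA on the opposite strand at 48 bases, found in 21.6%. Of the promoters not printed, Ccnd3 held GTAAACA (3.17% of promoters), Cdkn2c TTCCCGC (3.82%) and Cdkn1a TGGGAA, each in 1 of 2 promoters, and none of the letters were found in the Cdkn1b window.

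**Figure D3:**
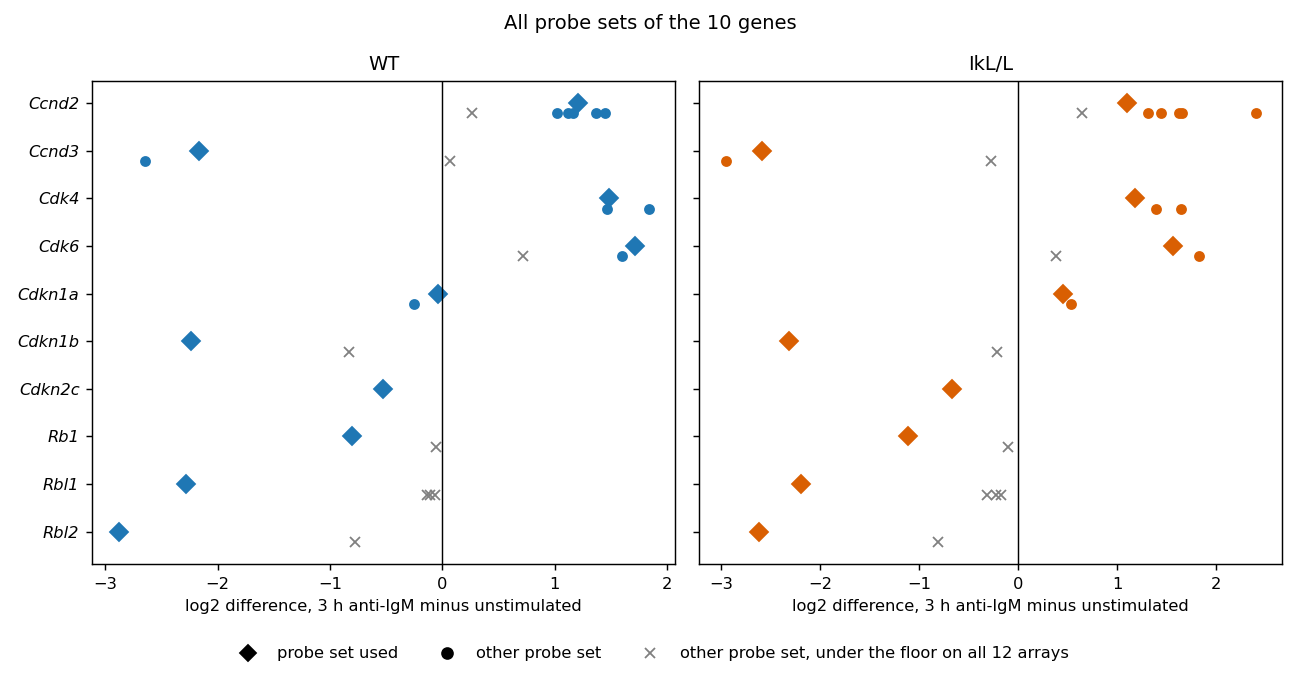
Log2 difference at 3 h against unstimulated for each of the 29 probe sets of the 10 genes, in WT and IkL/L, with diamonds for the probe set used, circles for the others and crosses for those under the floor on all 12 arrays. All probe sets of Ccnd2 and Cdk4 lie to the right of 0, and the crosses lie nearer to 0 than the probe set used in every gene that has one.

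Of the 29 probe sets of the 10 genes, 19 were not used, and 9 of these were under the floor on all arrays. These 9 include every other probe set of Cdkn1b, Rb1, Rbl1 and Rbl2, so the values of those genes rest on 1 probe set each, as does Cdkn2c, which has no other.

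Between IkL/L and WT, Ccnd3 passed the threshold at 3 h and on average over the conditions, and Rbl2 passed on average only. Both were lower in IkL/L, and neither passed in the test with 1 mean per genotype and replicate number, given below. No other of the 10 genes passed in the fit without a replicate block. In unstimulated cells 0 of 10 genes passed in limma, against 1.13% of all genes. At an unadjusted p under 0.05 there were 3 of 10, against 10.8% of all genes. At 3 h Ccnd3 alone passed, against 1.7% of all genes. At 12 h 0 of 10 passed, against 0.616% of all genes, and 0 of 10 were at an unadjusted p under 0.05, against 9.99%. Averaged over the 3 conditions Ccnd3 and Rbl2 passed, against 6.08% of all genes. The medians of the 10 genes were -0.14, -0.32, -0.18 and -0.24, against medians of all genes from -0.02 to 0.02.

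Marker lists also moved with the genotype. The mean of the 7 B cell markers was 9.76 and 9.92 in unstimulated WT cells against 9.37 and 9.43 in IkL/L. At 3 h it was 8.65 and 8.85 against 8.15 and 7.85, and at 12 h 8.51 and 8.57 against 8.37 and 7.73, so IkL/L was the lower in each condition. The list's median difference was -0.59, -0.71 and -0.43. On average 2 of 7 were called lower, Cd79a (-0.71, adjusted p 0.0189) and Cd79b (-0.90, adjusted p 0.00669), both parts of the antigen receptor, and 0 were called higher. In single conditions Cd79b was called lower at 3 h (-1.80, adjusted p 0.00973). Fcer2a, the gene of the sorting marker CD23, was called lower at 12 h (-1.21, adjusted p 0.0439). Of the 5 marginal zone B cell markers, Cd9, a membrane tetraspanin, was higher in IkL/L by 2.05, 2.63 and 2.52 in unstimulated, 3 h and 12 h cells, with adjusted p of 0.00426, 0.00109 and 0.00188. No other marker of that list was called higher. Plac8 was called lower, at 3 h by 1.56 (adjusted p 0.00967) and on average by 0.87 (adjusted p 0.00353). Of the 4 plasma cell markers, Sdc1 (-1.95) and Prdm1 (-0.70) were lower and Xbp1 (0.52) higher on average. Sdc1 was under the floor on all IkL/L arrays, at 2.33 to 3.43, so the size of its difference is not measured. Prdm1 was above the floor only in WT at 3 h, at 4.50 and 4.93. Of the 7 myeloid and 7 T cell markers 0 were called in any of these comparisons. The part of these markers in the results on Ccnd3 and Rbl2 was not tested.

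Ccnd3 was lower in IkL/L at 3 h by 0.88 (SE 0.15), or 1.84-fold, with an adjusted p of 0.024. This call was lost with housekeeping scaling, at 0.161, and without either replicate of either genotype, at up to 0.187. The difference was -0.46 in unstimulated cells with an adjusted p of 0.253 and -0.03 at 12 h with an adjusted p of 0.979. On average over the conditions Ccnd3 was lower by 0.46 (SE 0.09) with an adjusted p of 0.0144, lost without WT replicate 2 (0.196) or either IkL/L replicate (0.0858 and 0.0861) and kept without WT replicate 1. On the second probe set of the gene the difference at 3 h was -1.12 with an adjusted p of 0.132. That probe set was lower by 0.88 on average, past the threshold over all probe sets.

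Rbl2 was lower in IkL/L in all 3 conditions, and the arrays of the genotypes did not overlap in any. With 2 arrays against 2, such a lack of overlap was also seen for 38.7% of all genes in unstimulated cells, 45% at 3 h and 38.1% at 12 h. The differences were -0.78 in unstimulated cells, -0.52 at 3 h, where both IkL/L arrays were under the floor, and -0.35 at 12 h, with adjusted p of 0.055, 0.182 and 0.507. With a replicate block within genotype the adjusted p in unstimulated cells was 0.0326. That block removes the spread between replicate numbers, on which a comparison of genotypes rests, so this value can be too small. On average Rbl2 was lower by 0.55 (SE 0.09), which is at least 1.39-fold when the 2 arrays under the floor are raised to it, with an adjusted p of 0.00748, lost without WT replicate 1 (0.0777) or WT replicate 2 (0.11). WT replicate 1 is the one that stood apart in sex-linked transcripts.

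The 6 arrays of a genotype carry only 2 replicate numbers, and the arrays of a number deviated together, so the average over conditions was also tested with 1 mean per genotype and number. The means of Ccnd3 were 6.26 and 6.45 (WT) and 5.82 and 5.96 (IkL/L), with an adjusted p of 0.228. Those of Rbl2 were 5.90 and 5.85 (WT) and 5.31 and 5.33 (IkL/L), with an adjusted p of 0.101. Neither gene passed. In that test 0 of 10 genes and 5 of all genes passed, with 2106 of all genes at an unadjusted p under 0.05. With the replicate block within genotype Cdk6 (-0.31, adjusted p 0.0279 against 0.167 without the block) and Cdkn2c (-0.30, 0.0305 against 0.145) also passed on average. That makes 4 of 10, against 13% of all genes with the same block. The block removes the spread between numbers, on which a comparison of genotypes rests, so its p-values here can be too small.

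The response to stimulation was not called different between the genotypes for any of the 10 genes. By the interaction term in limma 0 of 10 passed at 3 h and at 12 h, against 0.0385% and 0.022% of all genes. At an unadjusted p under 0.05 there were 0 and 1 of 10, against 5.65% and 6.19% of all genes. The 1 was Rbl1 at 12 h, where the response in IkL/L was 0.67 above that in WT, with a 95% interval of 0.02 to 1.33 and an adjusted p of 0.784. For Ccnd3 the difference of responses was -0.42 at 3 h (95% interval -0.90 to 0.07) and 0.43 at 12 h (-0.05 to 0.92). For Cdkn1a it was 0.90 at 12 h, with an interval from -1.31 to 3.11. A response not called different is not thereby shown to be alike.

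**Figure D4:**
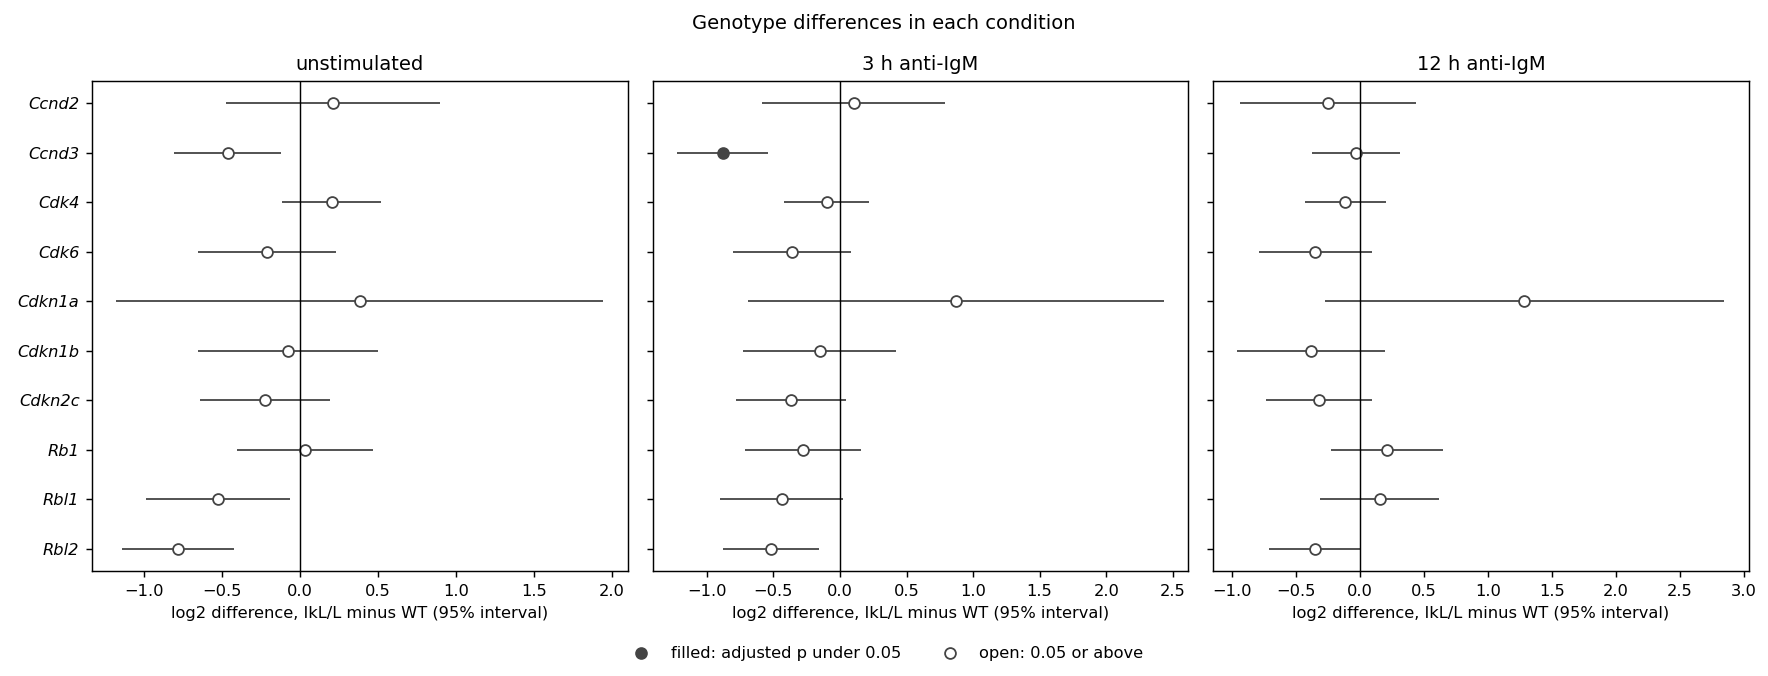
Log2 difference of IkL/L against WT for the 10 genes in unstimulated cells, at 3 h and at 12 h, with 95% intervals. Ccnd3 at 3 h is the gene past the threshold, and Rbl2 lies left of 0 in all 3 panels.

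Other genes of the pathway were followed in 6 lists. Among 11 genes of CDK activation and turnover, 4 rose at 3 h and 5 at 12 h in WT and none fell, and in IkL/L 4 rose at 3 h and 6 rose and 1 fell at 12 h. The share of all genes called in these comparisons was, for WT, 19.4% at 3 h and 18.8% at 12 h, and for IkL/L 20.4% and then 17.6%, and the counts of each list stand against it. Their median difference in WT was 0.34 and 0.72, against 0.02 and 0.05 over all genes. Cks1b, which helps the SCF ubiquitin ligase recognise p27, rose by 0.97 at 3 h and 1.79 at 12 h in WT and by 0.80 and 1.41 in IkL/L. Ccnh, the cyclin partner of CDK7, rose by 0.93 in WT and by 0.89 in IkL/L at 12 h. Cdc37, a chaperone partner for CDK4, rose by 0.87 in WT and by 1.12 in IkL/L at 12 h. Cdc25a, a phosphatase that activates CDKs, was higher in IkL/L on average by 0.39, with an adjusted p of 0.0238.

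Of 10 E2F and DP factors, 1 rose and 2 fell at 3 h and 2 rose and 2 fell at 12 h in WT, and the counts in IkL/L were 2 and 1, then 3 and 1. With 3 of 10 called at 3 h in each genotype, the list was near the share of all genes. Tfdp1, the main partner of E2F proteins, rose by 1.43 and 1.48 in WT and by 1.71 and 1.76 in IkL/L at 3 h and 12 h. Tfdp2, its relative, fell by 1.97 and 1.42 in WT and by 1.71 and 1.42 in IkL/L. E2f6, a repressor of the family, rose by 1.74 in WT and 1.83 in IkL/L at 12 h. E2f2 fell at least 3.16-fold at 3 h in WT with an adjusted p of 0.00512, with unstimulated WT arrays at 5.28 and 6.60 and 1 of the 3 h arrays under the floor. Tfdp2 was also lower in IkL/L on average, by 0.69 with an adjusted p of 0.0105.

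Of 14 measured E2F target genes, 2 rose and 1 fell at 3 h, and 6 rose and 1 fell at 12 h in WT, against 2 and 1, then 7 and 1 in IkL/L. The 3 of 14 at 3 h are near the share of all genes, and of the 7 that passed higher in IkL/L at 12 h, Tyms was under the floor on all arrays. Uhrf1, which maintains DNA methylation at replication, rose at 12 h by 1.74 in WT and at least 3.38-fold in IkL/L, where both unstimulated arrays were under the floor. Mcm5, of the replicative helicase, rose at 12 h by 1.09 in WT cells and by 0.63 in IkL/L cells. Pcna, the sliding clamp of DNA polymerases, rose by 0.92 at 3 h in WT and Mcm2, also of the helicase, by 0.72. Tk1, a nucleotide salvage kinase, fell at 3 h at least 1.85-fold in WT and at least 3.44-fold in IkL/L, with 2 and 1 of the 3 h arrays under the floor. Tk1 was higher in IkL/L on average, at least 1.53-fold, with an adjusted p of 0.0236. The list's median in WT was -0.02 at 3 h and 0.37 at 12 h.

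Of 5 other CDK inhibitors, Cdkn2d, which encodes the INK4 protein p19, was the single one past the threshold in each comparison with unstimulated cells. It was at 5.18 and 5.81 in unstimulated WT cells and 4.31 and 4.24 in unstimulated IkL/L cells, and under the floor on all 8 stimulated arrays, a fall of at least 2.44-fold in WT and at least 1.05-fold in IkL/L. It was lower in unstimulated IkL/L cells by 1.22, with an adjusted p of 0.0191. Of 6 other G1 cyclins and CDKs, Ccne1 (cyclin E1) fell by 1.14 at 3 h in WT, with an adjusted p of 0.00243, and no other passed in WT. In IkL/L Ccne1 rose at 12 h (0.71), and Ccna2, which encodes cyclin A2, also passed there but was under the floor on all arrays. Ccne1 was at 5.53 and 6.17 in unstimulated WT and at 4.78 and 4.71 in unstimulated IkL/L cells, lower by 1.11 with an adjusted p of 0.0338. Of 6 genes listed for DREAM, the complex in which p130 represses cell cycle genes, none passed in WT. The list includes Mybl2, which is not part of that complex with p130 and was under the floor on all arrays. In IkL/L Lin37 fell at 3 h (0.45 lower) and Lin54 at 12 h (at least 1.57-fold, with 1 of the 12 h arrays under the floor). Lin54 was higher in IkL/L on average, at least 1.29-fold with 3 of the 6 WT arrays under the floor, with an adjusted p of 0.0498.

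**Figure D5:**
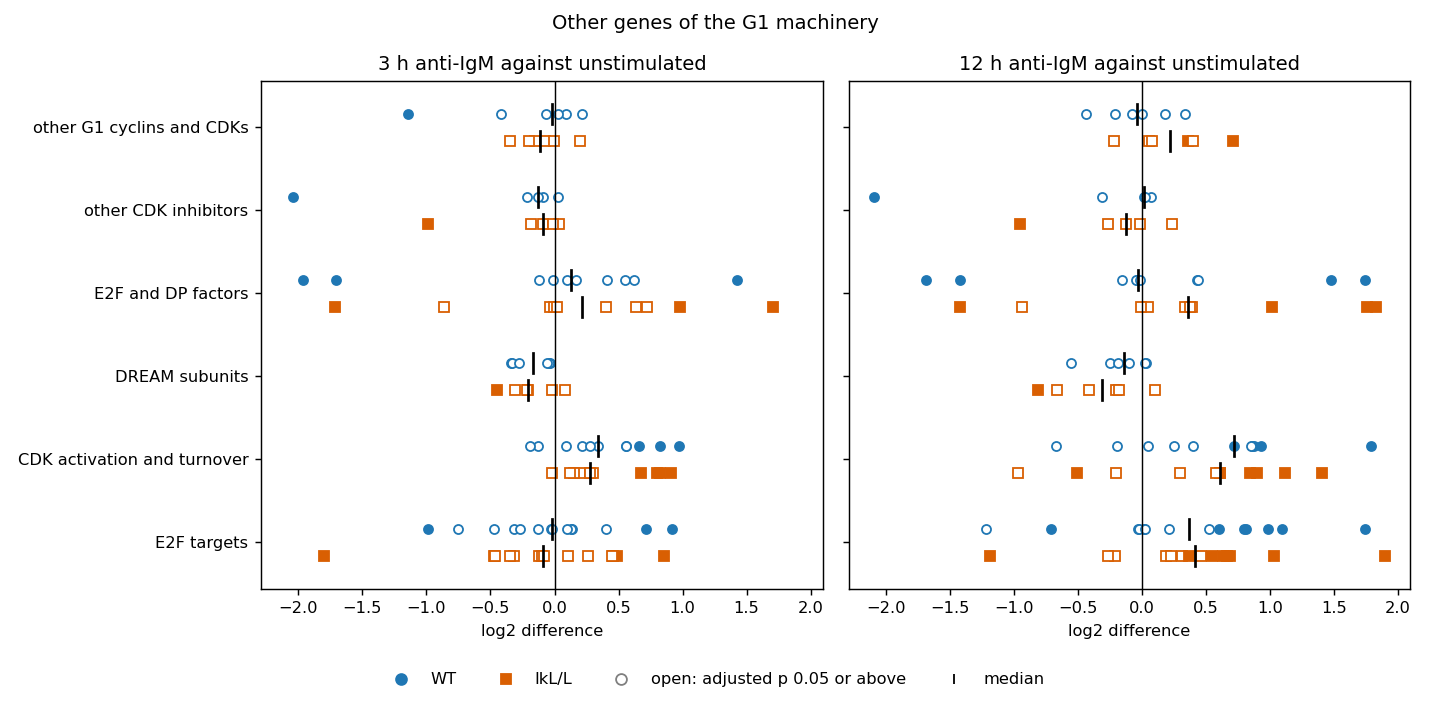
Log2 differences from unstimulated cells at 3 h and 12 h for the genes of the 6 pathway lists, in WT and IkL/L, with a bar at the median of each list and open symbols for an adjusted p of 0.05 or above. The medians of CDK activation and turnover and of the E2F targets are higher at 12 h than at 3 h in both genotypes.

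The genes whose log2 signal over the 12 arrays was most like that of each of the 10 were read by Pearson's r, among 4274 other genes whose group means span at least 1 log2 unit. These correlations are a description, and most of the variation they share is that between conditions. Rbl1 and Rbl2 were alike, with r of 0.9803, which made Rbl2 the second nearest gene to Rbl1, between Kat2b (0.9847) and Zmym2 (0.9778). The genes nearest to Ccnd3 were Atf7ip, Abca7 and Slc35d2, with r from 0.986 to 0.9935, and nearest to Rbl2 were Mgrn1, Hltf and Chst15, with r from 0.9838 to 0.99. Nearest to Cdk4 were Ide, Hirip3 and Nampt (0.9749 to 0.9824), and to Cdk6 Kdm2b, Scaf4 and Morc2a (0.9588 to 0.9678). Nearest to Cdkn1b were Notch2, 2010315B03Rik and Inpp5f (0.9722 to 0.977), and to Rb1 Leprot, Lsp1 and Psmb8 (0.9492 to 0.9781). Ccnd2 had Syce2, Pes1 and Ung (0.9188 to 0.941), and Cdkn1a had Nfil3, Cish and Atf5 (0.9375 to 0.9416). Cdkn2c, whose group means span 0.896, was not included. Among the 10 genes, Ccnd3 and Cdk4 had r of -0.881, Ccnd3 and Rbl2 0.963, and Cdk6 and Rb1 -0.899.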

How the data were processed

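Log2 signals were deposited by the authors for 12 Affymetrix arrays, summarised with RMA with no version given in the submitters' processing notes. The labels' protocols start from 100 ng of RNA in a 2-cycle labelling, and amplification can change relative signal. Of 45037 probe sets, 34945 have 1 gene symbol, 932 several and 9160 none in the table used. Each gene was represented by its brightest probe set on average, which gave 18193 genes.

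All arrays were fitted in limma 3.58.1 (R 4.3.3), with 1 mean per group and no replicate block (6 residual and 3.95 prior degrees of freedom). P-values were adjusted over all genes by Benjamini-Hochberg for each of 12 comparisons. The script was tested on simulated data. The 10 genes, the pathway and marker lists and the motifs were chosen with earlier results of these data known. Beside the 10 genes, the text names up to 3 pathway genes per list with the largest called changes in WT at 3 h and at 12 h, those called between genotypes, and the 3 genes most like each of the 10 where group means span at least 1 log2 unit. The members called in IkL/L only (Ccna2, Lin37, Tyms, and Lin54 at 12 h) and the markers called between genotypes were named after their values were seen. The floor of 4.21 was set after the values were seen, since no background calls are given.

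Deviations of same-numbered arrays, over the brighter genes, correlated with r from 0.546 to 0.619 within WT, 0.354 to 0.49 within IkL/L and 0.0263 to 0.31 across genotypes (8 of 9 over 0.1). The series reports 2 independent experiments. The fit has no block. By this check the numbers do pair arrays of a genotype, so a value from the fit with the block is printed wherever the block changes a call. Between genotypes such p-values can be too small, since the block removes the spread between numbers. The alternatives tried were replicate blocks, another choice of probe set, leaving out dim genes, an intensity trend, array weights, housekeeping scaling, only the arrays compared, and leaving out arrays.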

Additional observations from a re-analysis of the deposited data

How the results depend on the processing

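Of 38 calls of the 10 genes, 23 held in every other fit, leaving out fits that take a single other probe set, and 15 were lost in at least 1. On other probe sets that reached the floor, 3 calls did not pass, Ccnd2 at 3 h in WT (adjusted p 0.0671) and Ccnd3 in IkL/L at 12 h against 3 h (0.525) and between genotypes at 3 h (0.132). With these, 22 of the 38 held throughout. All 38 held with the replicate block within genotype and with a block shared by both genotypes, and each block added 8 calls. With the block within genotype and the shared block, the called genes of 12 h against 3 h in WT went from 1970 to 3090 with the former, with 5 of the 10 genes called under both. Between genotypes the counts with the former and the latter block were 717 and 400 unstimulated (from 205, with 1 of the 10 called under both), 935 and 572 at 3 h (from 310), 467 and 187 at 12 h (from 112), and 2371 and 1763 on average (from 1107, with 4 of the 10 under both). The interaction gave 27 and 11 at 3 h (from 7) and 26 and 19 at 12 h (from 4).

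Housekeeping scaling gave 1117 for 12 h against 3 h in WT. Between genotypes it gave 94 unstimulated, 102 at 3 h with 0 of the 10 genes, 31 at 12 h and 642 on average, and 1 for the 3 h interaction. The share of called genes that were higher moved from 60% to 36.4% in WT and 58.7% to 25.1% in IkL/L for 12 h against 3 h. In that comparison 1 of the 7 housekeeping genes was itself called higher in WT and 2 in IkL/L, with 0 lower. Between genotypes it moved from 52.7% to 38.3% unstimulated and 56.1% to 30.5% on average. Fitting only the arrays compared gave 1197 for 12 h against 3 h in WT. Between genotypes it gave 44, 128 and 4 in unstimulated, 3 h and 12 h cells, and 2 for each interaction. Both 3 h interaction counts with the mean of probe sets and without dim genes were 2, and the 12 h counts were 13 with the mean of probe sets and 7 with the intensity trend. With 1 mean per genotype and replicate number, an alternative added after seeing the data, 5 genes and 0 of the 10 were called.

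When arrays or a replicate were left out, the called genes ranged from 1771 to 3625, 1589 to 3545 and 412 to 2082 in WT (3 h, 12 h, 12 h against 3 h), and from 1963 to 3800, 1381 to 3325 and 1058 to 2974 in IkL/L. They ranged from 16 to 204, 17 to 327, 4 to 162 and 227 to 1305 between genotypes (unstimulated, 3 h, 12 h, average), and from 0 to 2 and 0 to 7 for the interactions at 3 h and 12 h. The members called ranged from 3 to 6 at 12 h and from 1 to 3 for 12 h against 3 h in WT, from 3 to 7 for 12 h against 3 h in IkL/L, and from 0 to 1, 0 to 1 and 0 to 3 between genotypes (unstimulated, 3 h, average).

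On probe sets under the floor on all arrays, 8 values, which concern 7 called differences, had the other sign and were not called. They were Ccnd3 in WT (0.069 at 3 h, 0.108 at 12 h), Rbl1 at 12 h in WT (0.0328 and 0.0748) and IkL/L (0.0467), Rbl1 at 12 h against 3 h (-0.0174 in WT, -0.15 in IkL/L) and Rbl2 at 12 h against 3 h in WT (-0.10). Changes of sign in values that were not called are not counted. The cause of these changes was not tested. Signal near the floor limits Cdkn1b and Rbl2 at 3 h, and among the pathway genes Cdkn2d and E2f2 at 3 h and 12 h, Tk1 at 3 h, Uhrf1 in unstimulated IkL/L cells, Lin54 in WT and at 12 h, and Ccna2 and Tyms on all arrays, and 2 arrays a group limit every comparison. Of the markers, Sdc1 and Prdm1 are limited by the floor in the same way.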
